A study of Mus musculus with 12 samples.

Results

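Growth factor receptors of fibroblasts were examined at the level of chromatin: the 10 receptor tyrosine kinase genes Pdgfra, Pdgfrb, Fgfr1, Fgfr2, Fgfr3, Fgfr4, Egfr, Igf1r, Met and Insr. They were chosen by name from 21631 protein-coding genes. The rule used no measured value, but earlier results of these data were known when the genes were chosen. Cut & Run, in which an antibody tethers a nuclease to chromatin and the released fragments are sequenced, was carried out on mouse embryonic fibroblasts (MEFs) labelled WT or fbxw7 KO, with antibodies against MLL4, H3K4me1 or H3K4me3. FBXW7 is the substrate-binding part of a ubiquitin ligase, and MLL4 is a histone methyltransferase that places H3K4me1 at enhancers. Each antibody was used in 2 libraries per genotype, 12 in all, and the labels name no other difference between the genotypes. All cells were grown in the same serum-containing medium, and serum holds ligands of several of these receptors. The sources used here state neither the deleted part of Fbxw7, nor whether the KO cells are 1 clone, nor whether replicate libraries are separate cultures. The p-values therefore reflect only how these libraries are ordered, and the spread between libraries of a genotype may be technical.

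Receptor tyrosine kinases bind a growth factor outside the cell, pair up and phosphorylate each other and adaptor proteins, which feed the RAS-MAPK and PI3K-AKT cascades. In connective tissue the PDGF receptors are the classical mitogen receptors and are widely used to mark fibroblasts, the FGF and IGF-1 receptors serve growth and survival, and EGFR and MET are better known from epithelia but are present on cultured fibroblasts. H3K4me3 marks the start of genes that are transcribed or poised, and H3K4me1 marks enhancers and the edges of active starts.

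A peak is a stretch that the authors' peak caller passed in 1 library. The measure used here is the covered length, the bases of a window that lie under peaks, over the gene plus 1 kb on each side or, for distal elements, plus 50 kb. A missing peak means that the stretch did not pass the caller, not that the mark was absent, and in bulk chromatin fewer marked cells and less mark per cell cannot be told apart. The H3K4me3 libraries held 5519477 to 11319701 fragments after filtering, the H3K4me1 libraries 11604131 to 13627038 and the MLL4 libraries 4435103 to 5838305. The H3K4me3 peak lists differed between genotypes across the whole genome. The WT lists held 17460 and 16078 peaks over 22.0 and 17.6 Mb, the KO lists 10397 and 11281 peaks over 6.25 and 7.25 Mb. WT replicate 1 had the most fragments. The part of library quality in this difference was not tested. H3K4me1 covered 41.2 and 36.8 Mb in WT and 38.7 and 32.8 Mb in KO. The targeted gene, Fbxw7, carried H3K4me3 over 3935 and 3738 bp in WT and 500 and 416 bp in KO, which does not test the deletion. All 16 fibroblast markers, Pdgfra and Pdgfrb among them, had an H3K4me3 peak in at least 1 library, against 1 of 8 epithelial, 1 of 6 haematopoietic, 2 of 5 endothelial and 3 of 6 neural markers. Of the 21631 protein-coding genes, 13276 had one by the same rule. Only 7 of the 16 fibroblast markers had a peak in all 4 libraries, beside 68.1% of those 13276 genes. Another 3 (Lum, Pdgfra and Twist2) had one in both WT and neither KO library, beside 12.6%.

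The starts of these genes are not alike in sequence, and H3K4me3 did not sit on all of them. RefSeq promoter windows (GRCm38.p6, from 250 bases before to 50 after the start) matched 7 of the 10 genes, in 8 windows because Fgfr3 has 2. Pdgfrb, Fgfr1 and Insr had no entry. The next 4 sequences are shown because they contrast windows that hold few CG dinucleotides, which are in capitals, with windows that hold more. They also contrast a start under H3K4me3 with starts that had none. Pdgfra is at chr5:75152001-75152300 on the plus strand, Fgfr2 at chr7:130266759-130267058 on the minus strand, Fgfr4 at chr13:55152568-55152867 on the plus strand and Egfr at chr11:16751953-16752252 on the plus strand.
Pdgfra: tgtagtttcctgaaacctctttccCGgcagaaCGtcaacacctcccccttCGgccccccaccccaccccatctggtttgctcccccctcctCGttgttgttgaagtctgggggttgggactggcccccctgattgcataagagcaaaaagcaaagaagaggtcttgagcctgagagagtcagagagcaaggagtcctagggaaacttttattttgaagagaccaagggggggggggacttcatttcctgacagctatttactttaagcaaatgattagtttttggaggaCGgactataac
Fgfr2: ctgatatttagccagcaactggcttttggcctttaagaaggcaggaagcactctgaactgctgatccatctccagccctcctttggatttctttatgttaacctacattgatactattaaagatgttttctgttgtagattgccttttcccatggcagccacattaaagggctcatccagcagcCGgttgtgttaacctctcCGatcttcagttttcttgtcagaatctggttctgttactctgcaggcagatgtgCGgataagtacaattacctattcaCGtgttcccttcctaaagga
Fgfr4: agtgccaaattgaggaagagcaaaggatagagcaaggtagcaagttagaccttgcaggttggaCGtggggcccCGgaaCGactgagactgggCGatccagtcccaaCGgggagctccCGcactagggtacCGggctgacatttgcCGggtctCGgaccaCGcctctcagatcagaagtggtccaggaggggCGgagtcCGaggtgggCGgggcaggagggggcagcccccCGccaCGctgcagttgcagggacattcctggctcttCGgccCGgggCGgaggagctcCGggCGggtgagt
Egfr: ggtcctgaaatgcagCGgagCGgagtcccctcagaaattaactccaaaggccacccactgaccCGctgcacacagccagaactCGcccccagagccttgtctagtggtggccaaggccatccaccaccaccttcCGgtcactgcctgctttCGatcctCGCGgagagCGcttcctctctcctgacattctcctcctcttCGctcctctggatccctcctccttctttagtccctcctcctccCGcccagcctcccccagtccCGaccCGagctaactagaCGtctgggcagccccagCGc

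The windows held 5 CG dinucleotides at Pdgfra, 4 at Fgfr2, 20 at Fgfr4 and 15 at Egfr. Those of Fgfr3 held 26 and 30, that of Met 34 and that of Igf1r 48, against a median of 13 over 21045 RefSeq windows. The Egfr window overlapped an H3K4me3 peak in all 4 libraries. The Met window and the second Fgfr3 window overlapped one in both WT and neither KO library, and the first Fgfr3 window in WT replicate 1 alone. The windows of Pdgfra, Fgfr2, Fgfr4 and Igf1r overlapped none. Over all windows the median CG count was 21 where all 4 libraries had a peak, 22 where only both WT libraries had one, and 4 where none did. The CG-poor starts of Pdgfra and Fgfr2 thus lie near the last median, while Fgfr4, with 20, and Igf1r, with 48, were close to or above the medians of marked windows but had no peak over the window itself. These 2 differ: Fgfr4 had no H3K4me3 peak anywhere in the gene. At Igf1r a region with peaks in both WT libraries and KO replicate 2 began at 67952342, just past the window's end at 67952306.

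Motifs were searched on both strands. The GC box GGGCGG was found 4 times and 2 times in the Fgfr3 windows, 4 times at Fgfr4, 3 times at Met, 2 times at Igf1r and once at Egfr, and 46.7% of all windows hold it. TATAAA, held by 12.7% of all windows, was in none of the 8, and CCAAT, held by 38.5%, was in the first Fgfr3 window only. The AP-1 motif TGACTCA is held by 4.69% of all windows and the E-box CACGTG by 7.91%. The Met window, at chr6:17463707-17464006 on the plus strand, is the only one of the 8 with the AP-1 motif, and it is shown because it is also the only one with both the AP-1 motif (at -54 from the start, on the minus strand) and an E-box (at -126), both in capitals.
Met: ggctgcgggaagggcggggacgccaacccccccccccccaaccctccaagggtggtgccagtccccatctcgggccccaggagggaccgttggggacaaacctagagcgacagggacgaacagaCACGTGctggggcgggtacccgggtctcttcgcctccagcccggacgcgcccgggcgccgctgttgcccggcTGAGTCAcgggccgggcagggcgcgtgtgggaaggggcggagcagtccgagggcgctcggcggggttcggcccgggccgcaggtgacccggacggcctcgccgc

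The Fgfr2 window holds an E-box 28 bases after the start. The 2 GC boxes of the second Fgfr3 window share a base. A match describes the letters only.

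H3K4me3 lay over 9 of the 10 receptor genes, and at each of these 9 it covered more bases in both WT libraries than in either KO library. Fgfr4 had no H3K4me3 peak in any library. The same order held for 93.5% of the 13276 genes with a peak, so 9 of 9 is near the background. No receptor gene had the reverse order, which 0.0301% of genes had. Scaled to the bases that each library covers in all, 5 genes (Pdgfra, Fgfr1, Fgfr3, Igf1r and Met) were higher in both WT libraries, against 27.5% of genes, and 3 (Pdgfrb, Egfr and Insr) were higher in both KO libraries, against 35.3% of genes. Fgfr2 overlapped between genotypes on that scale. The scaling moved the median log2 KO/WT of all genes with a peak in all 4 libraries by 1.55, from -1.12 to 0.43, so relative to other genes Pdgfrb, Egfr and Insr were above that median and Fgfr1, Fgfr2, Igf1r and Met below it on either scale. Without WT replicate 1, the library with the most fragments, the same 9 genes were higher in WT on unscaled lengths. An exact two-sided permutation test was run on each gene. With 4 libraries there are 6 assignments, the smallest p it allows is 0.333, and no difference can pass 0.05 in it. For all 9 genes the exact permutation test gave p = 0.333, and 0.356 after Benjamini-Hochberg adjustment over all genes tested.

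**Figure D1:**
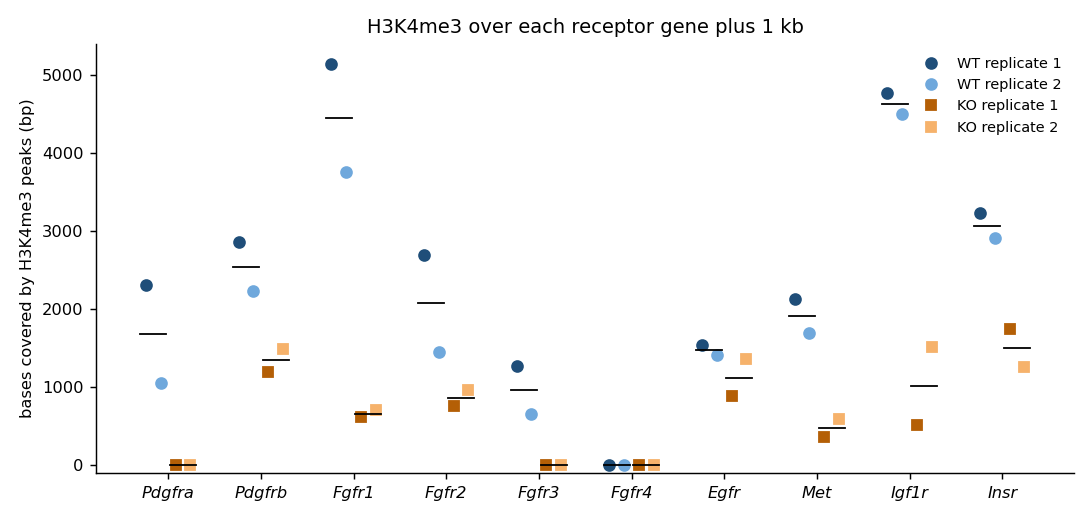
Bases covered by H3K4me3 peaks over each receptor gene plus 1 kb, in each WT and KO library, with lines at the means. At 9 genes both WT points lie above both KO points, Pdgfra and Fgfr3 have KO points at 0, and Fgfr4 has no peak. Scaled to each library's covered bases, the order turns for Pdgfrb, Egfr and Insr, and Fgfr2 overlaps.

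The platelet-derived growth factor receptors PDGFRα and PDGFRβ, which share ligands and mark most connective tissue cells, differed from each other. Pdgfra (chr5:75151322-75198206) was covered over 2308 and 1052 bp in the WT libraries and 0 bp in both KO libraries. Pdgfrb (chr18:61045127-61085067) was covered over 2852 and 2229 bp in WT and 1194 and 1482 bp in KO. Pdgfra is thus a gene with a peak in both WT and neither KO library (WT-only), while Pdgfrb kept its peak in every library. The mean for Pdgfrb was 2540.5 ± 441 bp in WT and 1338 ± 204 bp in KO (SD, n = 2), a log2 KO/WT of -0.93 on unscaled lengths and 0.63 on scaled ones. Of the genes with a peak in all 4 libraries, 64.2% had a lower unscaled ratio.

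The H3K4me3 of Pdgfra combined a high pileup with a low fold over its surroundings. It lay in 2 regions, chr5:75154056-75155091 and chr5:75155594-75156865, the first beginning 1.81 kb after the RefSeq start. In the better region the authors' pileup, the number of fragments over the summit, was 117 and 59 in the WT libraries, at percentiles 85.7 and 86.3 of all peaks in those lists. The authors' fold over the local background was only 2.87 and 2.88, at percentiles 3.41 and 2.46. The caller takes this background from up to 10000 bp around the peak in the same library, as no control library was used. The −log10 q was 20.2 and 9.86, and the part of the low fold in the WT-only call was not tested. With the 4 lists cut to an equal length of 10397 peaks, Pdgfra had no peak in any library.

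The fibroblast growth factor receptors fell into 3 patterns. Fgfr1 (chr8:25518759-25575718), the main FGF receptor of mesenchymal cells, was covered over 5145 and 3752 bp in WT and 604 and 698 bp in KO. Fgfr2 (chr7:130162451-130266808), whose splice forms in epithelium and mesenchyme bind different ligands, was covered over 2689 and 1448 bp in WT and 752 and 957 bp in KO. Both kept a peak in all 4 libraries, and the WT values were the higher ones, at Fgfr2 on the unscaled lengths only. Fgfr3 (chr5:33721724-33737068), a brake on cartilage growth, was covered over 1268 and 649 bp in WT and by none in KO. Fgfr4 (chr13:55152818-55168759), known chiefly from liver, had none, although its neighbours Zfp346 and Nsd1 had H3K4me3 within 50 kb.

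At Fgfr1 the mean was 4448.5 ± 985 bp in WT and 651 ± 66.5 bp in KO (SD, n = 2), a log2 KO/WT of -2.77. Only 1.44% of genes with a peak in all 4 libraries had a lower ratio. At Fgfr2 the log2 ratio was -1.28 unscaled and 0.30 scaled. The domain at the lower-coordinate end of Fgfr1, chr8:25518871-25522274, held 1 peak of 3358 bp and 1 of 3165 bp in the WT libraries. In its place KO replicate 1 had a single peak of 604 bp and KO replicate 2 had peaks of 334 and 364 bp, which lay inside the WT peaks or at their far edge. As at Pdgfra, the WT pileups of 138 and 75 were at high percentiles (94.8 and 97.5) and the folds of 4.70 and 5.05 at low ones (17.6 and 25.2), and the part of this in the KO lengths was not tested. RefSeq also places the long non-coding RNA gene Gm31288 over part of Fgfr1. The best region of Fgfr2, chr7:130264268-130266507, ended 0.301 kb inside the gene from the RefSeq start, so the CG-poor window printed above was next to it and not under it.

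The Fgfr3 peaks were weak ones. Their region, chr5:33721587-33722854, overlapped both RefSeq windows in WT replicate 1 and the second in WT replicate 2. The −log10 q was 17.1 and 8.99, at percentiles 28.9 and 22.4 of the 2 WT lists. With lists of equal length Fgfr3, like Pdgfra, had no peak in any library. Thus 9 receptor genes had a peak and 2 of them were WT-only, beside 12.6% of all genes. With lists of equal length the count was 0, beside 3.46% of all genes. No receptor gene was KO-only, against 0% of all genes, and 7 of 9 had a peak in all 4 libraries, against 68.1%.

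EGFR and MET, the receptors for EGF-like ligands and for hepatocyte growth factor, differed in how much of the WT length the KO libraries kept. Egfr (chr11:16752203-16913907) was covered over 1538 and 1406 bp in WT and 874 and 1355 bp in KO. Met (chr6:17463349-17573980) was covered over 2127 and 1685 bp in WT and 357 and 587 bp in KO. The KO replicate 2 value of Egfr lay just below the WT values, whereas at Met both KO values were far below. The log2 KO/WT was -0.40 at Egfr, with 94.7% of genes lower, and -2.01 at Met, with 9.90% of genes lower.

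The Egfr peak was among the best of each list. Its region, chr11:16752050-16753591, had a −log10 q of 80.8 and 29.7 in WT and 11.6 and 13.3 in KO, at percentiles 96.0, 85.2, 92.3 and 93.3. Scaled to library totals, the log2 ratio of Egfr was 1.13, with KO the higher. The Met region, chr6:17463254-17465092, was at percentiles 40.7 and 37.1 in WT, 34.7 in KO replicate 2, and the middle of the list in KO replicate 1. Both KO peaks of Met began after the printed window, at 1.01 and 0.712 kb from the gene's start coordinate, so the E-box and AP-1 motif lay under the WT peaks only.

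The insulin and IGF-1 receptors are close relatives that form hybrids and govern growth and metabolism. Igf1r (chr7:67952257-68233668) was covered over 4769 and 4497 bp in WT and 506 and 1505 bp in KO. Insr (chr8:3150922-3279649) was covered over 3233 and 2905 bp in WT and 1741 and 1249 bp in KO. Neither overlapped between genotypes in the lists as deposited, but Igf1r did with lists of equal length, where its log2 KO/WT moved from -2.20 to -1.22. In the deposited lists the KO libraries differed from each other most at Igf1r. The log2 KO/WT was -2.20 at Igf1r, with 6.47% of genes lower, and -1.04 at Insr, with 55.7% lower. Scaled, Insr turned to 0.53, with KO the higher.

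Both genes carried H3K4me3 well inside the gene. At Igf1r the region chr7:68127964-68130067, from 175.7 kb after the start, was the only one with a peak in all 4 libraries. No other RefSeq gene lies there, and its −log10 q was 56.4 and 18.1 in WT and 9.43 and 10.7 in KO. The region at the start itself, chr7:67952342-67954052, had a peak in both WT libraries and KO replicate 2 but not in KO replicate 1. In the WT libraries its pileup was 121 and 56 and its fold 3.46 and 3.16, again many fragments with a low fold, whose part in the missing peak was not tested. At Insr the higher-coordinate end (chr8:3278288-3280063) was marked in all 4 libraries, and an internal region 69.6 kb from the lower end (chr8:3220501-3222023) was marked in all but KO replicate 2.

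**Figure D2:**
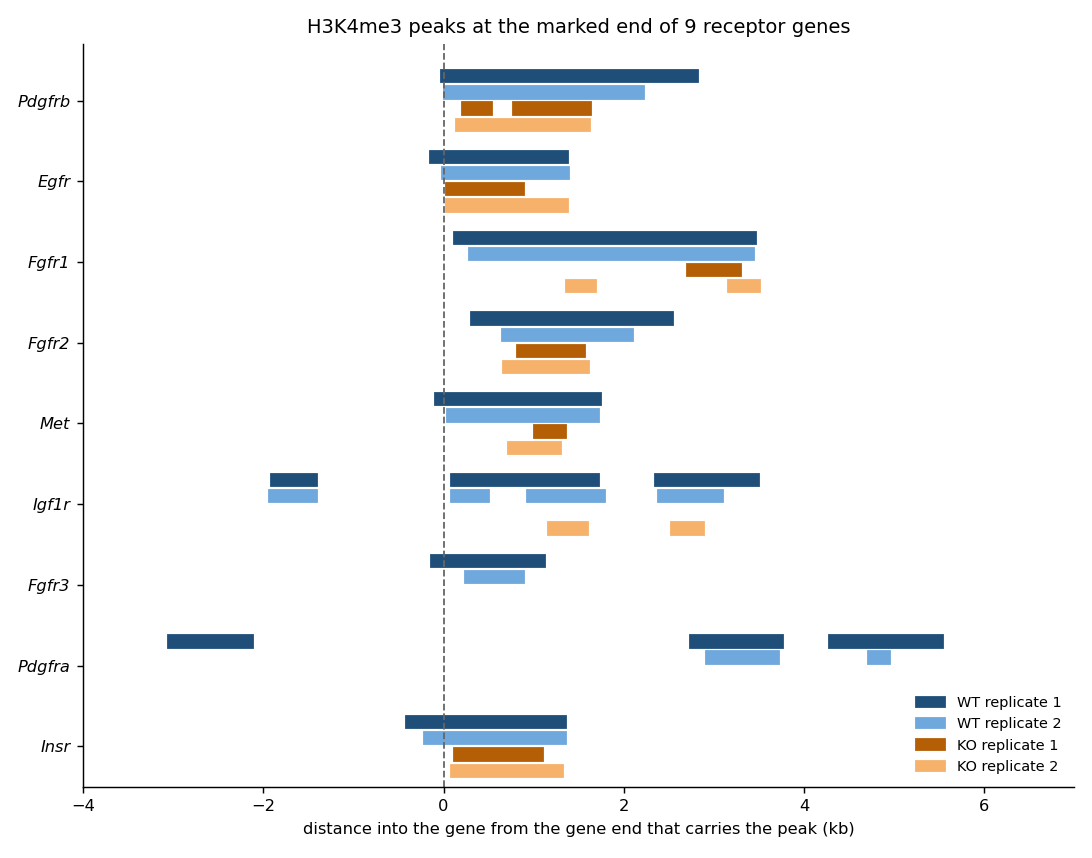
H3K4me3 peaks of each library around the marked end of the 9 receptor genes with a peak, by distance into the gene in kb. The KO peaks at Fgfr1 and Met are short and lie within or at the edge of the longer WT peaks, Egfr has peaks of like position in all 4 libraries, and Pdgfra and Fgfr3 have WT peaks only.

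Over the 7 receptor genes with a peak in all 4 libraries the median log2 KO/WT was -1.28, with a range from -2.77 to -0.40. Over the 9041 genes with a peak in all 4 the median was -1.12, with quartiles of -1.56 and -0.78. Fgfr1, Igf1r and Met lay below the lower quartile, Egfr above the upper, and Fgfr2, Insr and Pdgfrb between them. As a share of the gene window, the WT values ran from 0.859% at Egfr to 8.73% at Fgfr1. The KO values of the genes with a peak ran from 0.179% at Igf1r to 3.53% at Pdgfrb. This share depends on gene length and does not rank the genes by mark. In WT replicate 1, 1538 bp made 0.939% of the 163.7 kb window of Egfr, and 1268 bp made 7.31% of the 17.3 kb window of Fgfr3. Over all genes with a peak the WT medians were 5.65% and 4.94%, and the KO medians 2.41% and 2.62%. Pdgfrb was above the median of its library in each of the 4, and Fgfr1 in both WT and neither KO library.

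H3K4me1, the enhancer mark, did not go one way over the receptors. Within 50 kb, 9 of the 10 genes had peaks in all 4 libraries, against 83.4% of the 18420 genes with a peak. The part of gene length in this share was not tested. Met and Insr were covered over more bases in both WT libraries than in either KO library, an order held by 34.3% of genes, and Fgfr3 over more in both KO libraries, an order held by 12.1%. The other 7 genes overlapped between genotypes. Scaled to library totals, Igf1r joined Met and Insr (28.8% of genes had that order) and Fgfr4 joined Fgfr3 (18.5%), with a shift of the median of all genes by 0.13. Over the gene plus 1 kb, Met alone was higher in both WT libraries (26% of genes) and Fgfr3 alone in both KO libraries (12.4%). The median log2 KO/WT of the 9 genes with peaks in all 4 libraries was -0.13, against -0.22 over all such genes.

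Met had the widest gap between genotypes. It was covered over 10693 and 7441 bp in WT and 5548 and 4901 bp in KO, in 16, 11, 9 and 8 peaks. The mean was 9067 ± 2300 bp in WT and 5224.5 ± 457 bp in KO (SD, n = 2), a log2 KO/WT of -0.80, with 14.3% of genes lower (exact permutation p = 0.333, and 0.718 after Benjamini-Hochberg adjustment over all genes). Chromosome 6, which carries Met, held a share of the H3K4me1 peaks in KO that was 0.938 times that in WT, at a relative mean pileup of 0.947, and the part of this in the Met result was not tested.

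Insr was covered over 7244 and 5501 bp in WT and 5370 and 3539 bp in KO, a log2 KO/WT of -0.52. The values of WT replicate 2 and KO replicate 1 were close to each other. The H3K4me1 peak share of chromosome 8 was 1.03 times that in WT, and its part in the result was not tested.

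Fgfr3 had no H3K4me1 peak within 50 kb in either WT library, and 1 in each KO library, of 531 and 325 bp. Within 50 kb it was thus the 1 KO-only receptor gene, against 1.11% of genes, and none was WT-only, against 2.02%. It was also KO-only over the gene plus 1 kb, where it was the 1 KO-only receptor gene of 9 with a peak, against 2.75% of the 12781 genes with a peak. None was WT-only there, against 4.69%, and 8 of 9 had peaks in all 4 libraries, against 51.8%. A longer gene gives a longer window, and these shares were not compared at equal gene length. Fgfr3 (15.3 kb), with peaks in the KO libraries only, and Fgfr4 (15.9 kb), with none over the gene plus 1 kb, are the shortest receptor genes. The others run from 39.9 kb at Pdgfrb to 281.4 kb at Igf1r, and the part of length was not tested. The KO peaks of Fgfr3 were weak, with a −log10 q of 4.77 and 2.82, at percentiles 35.1 and 3.62. They lay at chr5:33722691-33723375, from 0.967 kb after the gene's first base. The peak of KO replicate 1 overlapped the end of the H3K4me3 peak of WT replicate 1 only. That of KO replicate 2 began at 33723051, past the end of the WT H3K4me3 region.

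**Figure D3:**
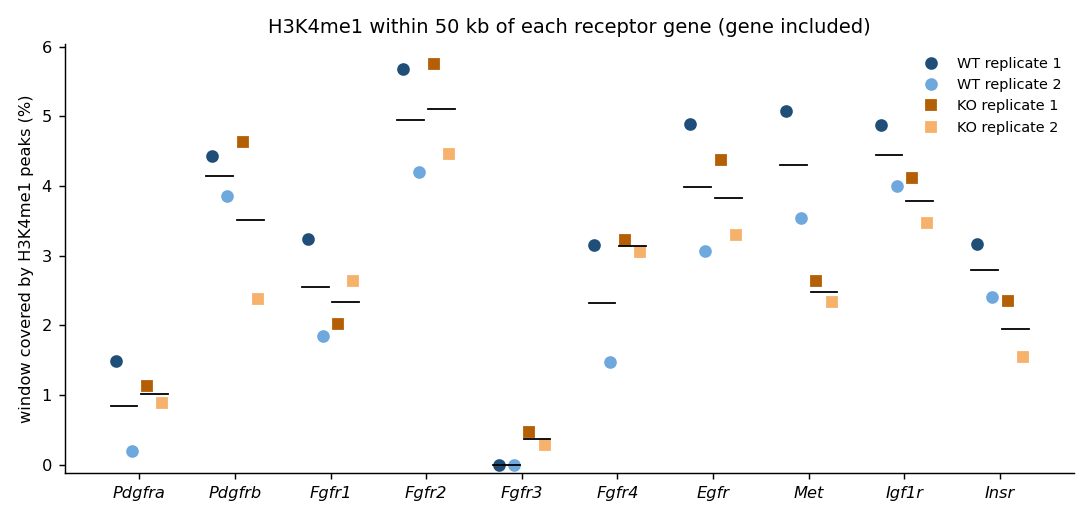
Share of the window of each receptor gene plus 50 kb that H3K4me1 peaks cover, in percent, in each WT and KO library, with lines at the means. Met and Insr have both WT points above both KO points, Fgfr3 has WT points at 0, and the other 7 genes overlap, at Igf1r and Fgfr4 only when unscaled.

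The remaining genes varied within a genotype as much as between genotypes. Pdgfra was covered over 2185 and 278 bp in WT and 1649 and 1307 bp in KO, with WT replicate 2 the lowest of the 4. Fgfr4, whose gene body had no H3K4me1 peak in any library, was covered in its flanks over 3648 and 1713 bp in WT and 3738 and 3541 bp in KO. WT replicate 2 was again the lowest, and scaled to library totals both KO values of Fgfr4 were above both WT values. At Pdgfrb the values were 6190 and 5404 bp in WT and 6486 and 3323 bp in KO, at Fgfr1 5091, 2888, 3159 and 4144 bp in the same order of libraries, and at Fgfr2 11614, 8572, 11750 and 9111 bp.

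Egfr and Igf1r are the longest of the 10 genes. There were 35, 21, 25 and 21 peaks within 50 kb of Igf1r, 22, 11, 16 and 14 of Egfr and 17, 14, 18 and 17 of Fgfr2. As a share of the window, Fgfr2 was the most covered of the 10 in each library, from 4.19% to 5.75%. Egfr, from 3.07% to 4.89%, and Igf1r, from 3.46% to 4.88%, overlapped this range, as did Met and Pdgfrb. Pdgfra, from 0.189% to 1.49%, and Fgfr3, from 0% to 0.460%, were the least covered, below the library medians of 1.90%, 1.68%, 1.66% and 1.43% for genes with a peak.

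Single elements showed where the genotypes differed. Merging the 4 lists gave 162 H3K4me1 regions within 50 kb of the 10 genes. Of these, 45 (27.8%) were in all 4 libraries, 9 (5.56%) were WT-only, 5 (3.09%) were KO-only and 57 (35.2%) were in 1 library. Over the 94400 regions of the genome the shares were 28.7%, 6.63%, 5.37% and 36.6%, so the receptors were near the background in each class.

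Met held 4 of the 9 WT-only regions. They began at -45.3 kb (chr6:17418017-17418860), 91.4 kb (chr6:17554796-17555418), 97.9 kb (chr6:17561249-17562202) and 110.0 kb (chr6:17573361-17574332) from the gene's lower-coordinate end, the last across the far end of the gene. Their −log10 q ran from 2.78 to 6.59. Igf1r held 3, at chr7:67903758-67904470, chr7:67910783-67911412 and chr7:67974266-67974796. Pdgfra held 1, at chr5:75175221-75175599, and Insr 1, at chr8:3172014-3172630. All but the first of Met and the first 2 of Igf1r lie inside the gene or across its end.

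The 5 KO-only regions belonged to 5 genes. That of Pdgfra, chr5:75148133-75148801, had the best −log10 q of the 5, 7.13 and 6.66, and ran from -3.19 to -2.52 kb from the gene's lower-coordinate end. Overlapping this region, WT replicate 1 alone had a weak H3K4me3 peak (chr5:75148268-75149205), with a −log10 q of 6.41, at percentile 8.92 of its list. Those of Fgfr2 (chr7:130182603-130183295) and Egfr (chr11:16793432-16793993) were inside the genes, the latter also in the long non-coding RNA gene Gm39584, and that of Fgfr3 is given above. At Igf1r the KO-only region chr7:67973344-67973787 lay beside the WT-only region that begins at 67974266, so that both genotypes had a peak there at neighbouring positions.

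**Figure D4:**
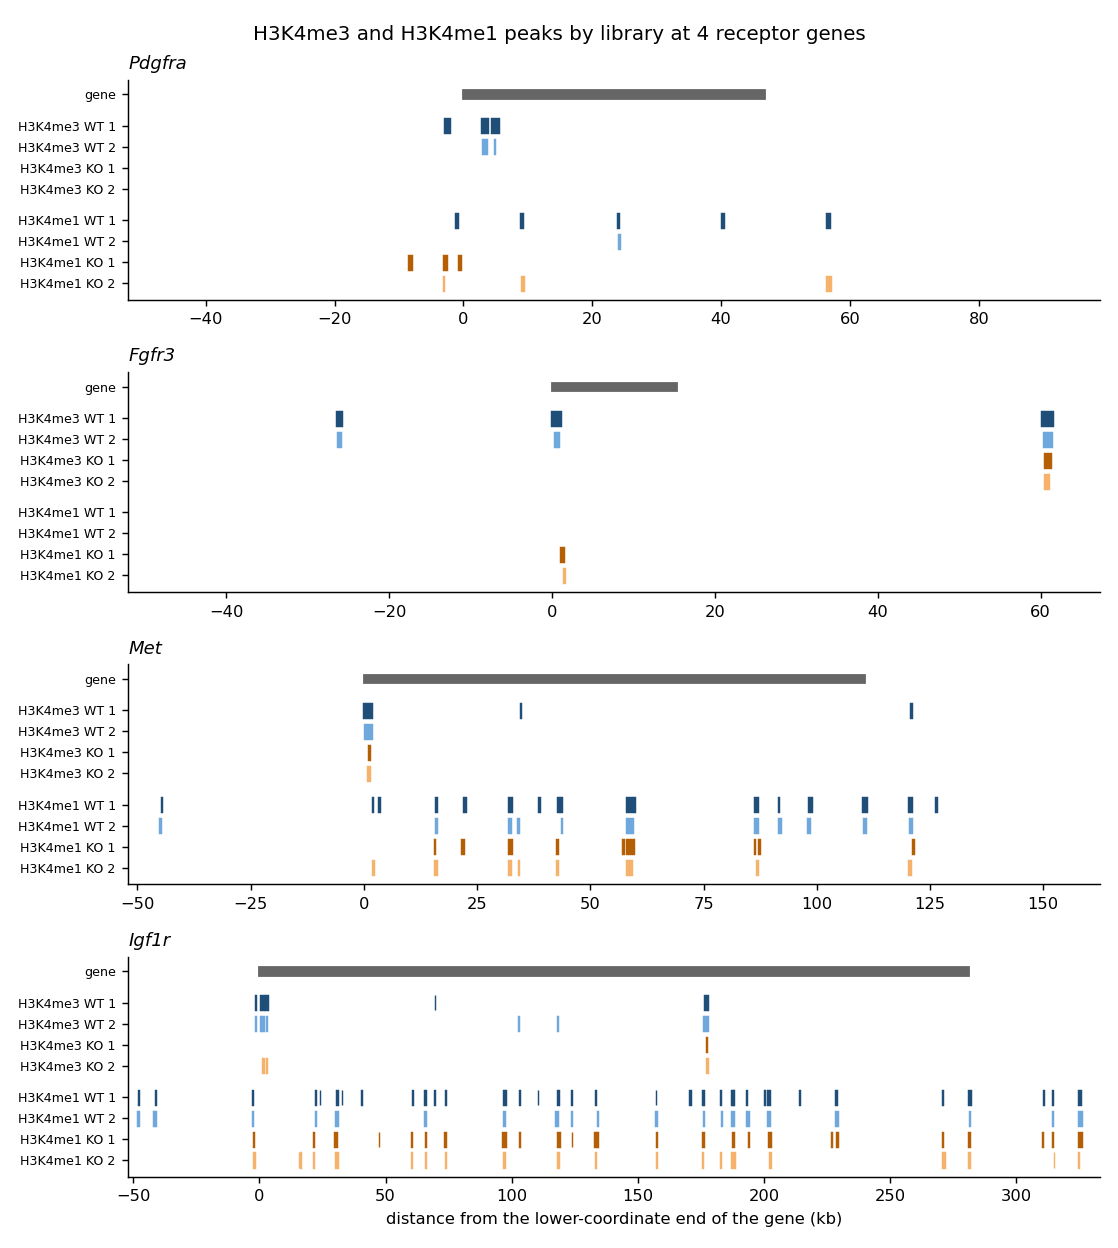
H3K4me3 and H3K4me1 peaks of each library over Pdgfra, Fgfr3, Met and Igf1r, by distance from the gene's lower-coordinate end in kb. Over the gene plus 1 kb, H3K4me3 at Pdgfra and Fgfr3 is seen in WT libraries only, while a region in the right flank of Fgfr3 has it in all 4. Within 50 kb Met has more H3K4me1 peaks in WT (16 and 11) than in KO (9 and 8), and Igf1r has an internal H3K4me3 region in all 4 libraries.

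The regions that ranked best in all 4 libraries were at Fgfr2 (chr7:130128383-130130691, at or above percentile 88.2 of each list), Met (chr6:17521162-17523108, 83.2) and Insr (chr8:3301519-3302715, 76.3). The Fgfr2 and Insr regions lie outside the gene. That of Pdgfrb, chr18:61009854-61011454 (76.2), lies in the neighbouring gene Slc6a7, so its target cannot be told from position. Those of Egfr (chr11:16853494-16855162, 69.1), Fgfr4 (chr13:55183532-55184403, 66.0), Igf1r (chr7:68233054-68234312, 63.7) and Fgfr1 (chr8:25535440-25536203, 33.6) ranked lower. Pdgfra and Fgfr3 had no region in all 4 libraries.

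MLL4 was not detected near these genes. No receptor gene had an MLL4 peak within 50 kb in any of the 4 libraries. The WT lists held only 60 and 69 peaks, the KO lists 49 and 40, and 0.379%, 0.513%, 0.194% and 0.0971% of all genes had a peak within 50 kb in them. The nearest MLL4 peaks were 1.01 Mb from Fgfr2 and 1.25 Mb from Met. Lists this short give no view of MLL4 at the H3K4me1 regions of the receptors.

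The wider pathway was read from 4 lists, over each gene plus 1 kb. Of 21 ligand genes, 16 had an H3K4me3 peak, and the WT-only share was 5 of 16 (31.3%), beside 12.6% for all genes. Among them were Fgf7, a growth factor made by stroma for epithelia, with 3251 and 2481 bp in WT, and Hgf, the ligand of MET, with 2130 and 1527 bp in WT, both with 0 bp in KO. Areg, an EGFR ligand, had 812 and 879 bp in WT and 0 bp in KO, and Fgf18 had 1589 and 1149 bp in WT and 0 bp in KO. The last of the 5 is Tgfa, another EGFR ligand, named after its values were seen. With lists of equal length 13 ligand genes had a peak and 0 were WT-only (background 3.46%), a check added after the data had been seen.

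Of 24 adaptors and effectors all had an H3K4me3 peak, and 1 was WT-only, Sos1, the exchange factor that loads RAS, with 2201 and 1420 bp in WT and 0 bp in KO. Of 17 feedback inhibitors all had a peak, and 1 was WT-only, Spry2, with 3312 and 2638 bp in WT and 0 bp in KO. Of 40 other receptor tyrosine kinases 29 had a peak, and 3 were WT-only: Erbb4, Fgfrl1 and Ret. The WT-only shares of the 3 lists were 4.17%, 5.88% and 10.3%, all below the 12.6% of all genes. With lists of equal length Spry2 and Fgfrl1 were still WT-only, 1 of 16 and 1 of 23 genes with a peak on their lists beside 3.46% of all genes, and the other WT-only genes were not. None of the genes on the 4 lists was KO-only. The median log2 KO/WT of the genes with a peak in all 4 libraries was -1.49 for ligands, -1.33 for adaptors, -1.25 for inhibitors and -1.04 for other receptors, beside -1.12 for all genes.

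H3K4me1 over the same lists was WT-only at Sos2 (1 of 21 adaptors with a peak) and Ntrk3 (1 of 32 other receptors) and KO-only at Akt1 (1 of 21 adaptors), with 636 and 309 bp in KO and 0 bp in WT. The shares over all genes were 4.69% WT-only and 2.75% KO-only, so these counts are near the background. No ligand (of 17 with a peak) or feedback inhibitor (of 16) was either.

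The genes with covered lengths most like those of Pdgfra over the 8 histone libraries were Plxnd1, Grin1 and Cdc42ep1, with summed absolute differences of log2(1 + bp) of 1.75, 2.27 and 2.35. For Pdgfrb, Enc1 and Usp37 were the nearest, with 1.40 and 1.88. The likeness is over peak lengths alone. Like Pdgfra, its 3 nearest genes had 0 bp of H3K4me3 in both KO libraries, which follows from choosing them by these lengths.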

How the data were processed

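The members and the gene lists were chosen with earlier results of these data known. Per the submitters' processing notes the build was mm10, and HOMER 4.10, deepTools, MACS2, bedtools, SAMtools 1.5 and Bowtie2 are listed without roles. Per the file headers, the authors called narrow peaks in each library on its own with MACS2 2.1.0.20150731, without a control library, at a q cutoff of 0.01 and a local background over 10000 bp. Duplicates were kept up to 2 per position in the H3K4me1 lists and in H3K4me3 WT replicate 1, and to 1 in the others, per the file headers. Each deposited list gives −log10 p and q values, a fold ratio over local background and an unscaled pileup signal. These were used only within a list, except in the alternative that set a −log10 q of at least 10 for all lists.

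Peaks on chromosomes 1 to 19 and X counted for a gene when they shared at least 1 bp with its window, and covered length was clipped to the window. Percentiles run to 100 for the best peak of a list. A gene or merged region is WT-only or KO-only when both libraries of 1 genotype and neither of the other had a peak. Gene positions came from RefSeq GRCm38.p6, which shares the coordinates of mm10. Exon positions were not used here, and strand came from the promoter windows of 7 genes. Differences were tested by exact permutation with Benjamini-Hochberg adjustment. All 10 receptor genes are named. H3K4me1 regions are named where they are WT-only, KO-only or the best-ranked in all 4 libraries, and list genes (up to 4 a list, in alphabetical order) where WT-only or KO-only. The alternatives were equal list lengths, a −log10 q of at least 10, gene ends or flanks only, at least 50% of a peak in the window, scaling to covered bases, leaving out each library, and a replicate block. Up to 3 genes of like pattern are named for Pdgfra and Pdgfrb, and 1 of them is not reported here. Window counts were tested on simulated peaks. Python 3.11.15, numpy 2.4.6, pandas 2.3.3 and scipy 1.17.1 were used.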

Additional observations from a re-analysis of the deposited data

Results flagged for a closer look

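At Fgfr3 the 2 marks went opposite ways over the gene plus 1 kb. H3K4me3 covered 1268 and 649 bp in WT and 0 bp in KO, whereas H3K4me1 covered 0 bp in WT and 531 and 325 bp in KO, a mean of 428 bp more in KO. Every library followed this order, and the difference between the marks was not tested. All peaks concerned rank in the lower part of their lists, at percentiles of 35.1 or less, and with lists of equal length the H3K4me3 peaks drop out of both WT libraries.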

How the results depend on the processing

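With 2 libraries per genotype the exact permutation test could not pass 0.05, and a peak that is missing may lie just under the caller's cutoff, so counts of WT-only genes move with list length. For H3K4me3, WT-only receptor genes numbered 2 in the lists as deposited, 0 with lists of equal length and 5 with a −log10 q of at least 10 (Pdgfrb, Fgfr1, Fgfr2, Met and Insr). At gene ends they numbered 3 (Fgfr1, Fgfr3 and Igf1r), without Pdgfra. No share over all genes was computed at a −log10 q of at least 10 or at gene ends, so these counts have no background. That cutoff also falls at different ranks of the H3K4me3 lists. A −log10 q of 10.2 was at percentile 17.9 in WT replicate 1, and 9.43 was at percentile 82.0 in KO replicate 1. Genes higher in both WT libraries numbered 9, then 6 with equal list length (without Pdgfra, Fgfr3 and Igf1r), and 5 when scaled to covered bases, where genes higher in both KO libraries went from 0 to 3. The scaled log2 KO/WT turned to 0.63 at Pdgfrb, 0.30 at Fgfr2, 1.13 at Egfr and 0.53 at Insr. For H3K4me1 over the gene plus 1 kb, WT-only genes went from 0 to 1 with the stricter cutoff (Pdgfrb) and to 1 at gene ends (Met), where KO-only genes went from 1 to 0. With the stricter cutoff the 1 KO-only gene was Insr in place of Fgfr3. For H3K4me1 within 50 kb, genes higher in WT went from 2 to 1 with the stricter cutoff and 4 in the flanks alone, and ranged from 2 to 6 when a library was left out. The highest was without WT replicate 2, and without KO replicate 1 there were 4. Genes higher in KO went from 1 to 2 with equal list length, 0 with the stricter cutoff, 0 in the flanks alone and 2 when scaled, and ranged from 1 to 6 when a library was left out, with 6 without WT replicate 1 and 4 without KO replicate 2. With the stricter cutoff the log2 KO/WT of Insr turned to 0.12. Leaving out a library changed no H3K4me3 count. The cause of these changes was not tested, beyond fewer peaks or libraries entering.

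Covered lengths showed no pairing by replicate number: over genes, the WT and KO differences between replicates 1 and 2 correlated at 0.019 for H3K4me3 and -0.0041 for H3K4me1. This cannot tell whether libraries of the same number were made together. With a replicate block, genes higher in KO for H3K4me1 within 50 kb numbered 3 (Fgfr2, Fgfr3 and Fgfr4), genes higher in WT 3, and the H3K4me3 counts stayed at 9 and 0. A log2 value of a single gene exists only where both genotypes had covered bases. Of these values under the alternatives, 45 of 63 for H3K4me3 and 74 of 87 for H3K4me1 stayed within 1 SD of the replicates. Left out for H3K4me3 were Pdgfrb, Fgfr1, Fgfr2, Met and Insr with the stricter cutoff, and Fgfr1 and Igf1r at gene ends. There the KO libraries had no covered bases, so the shares leave out the largest changes. The sign turned in 4 of the 63 and in 16 of the 87. For H3K4me1 the turns were at Egfr, Fgfr1, Fgfr2, Fgfr4, Igf1r, Insr, Pdgfra and Pdgfrb. An SD from 2 libraries is itself uncertain. WT-only ligand genes for H3K4me3 went from 5 to 0 with equal list length, an alternative chosen after seeing the data.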
